A study of Mus musculus with 6 samples.

Results

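Expression and isoform composition were examined for 10 human genes of cell polarity: LLGL1, LLGL2, SCRIB, DLG1, PARD3, PARD6B, PRKCI, PRKCZ, CRB3 and STK11. They were taken by symbol from 58870 genes in the isoform tables. LLGL1 was chosen by its level in TPM, which was lower in the Dox samples than in the No Dox samples, so its values and those of its isoforms are given as a description, with no test. The other 9 genes were listed with it by function, with earlier results of these samples known.

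Cell polarity divides the membrane of an epithelial cell into an apical and a basolateral domain. At the apical side, PAR3, PAR6 and an atypical protein kinase C (aPKC) form the Par complex, and the small transmembrane protein CRB3 belongs to the Crumbs complex. At the basolateral side, SCRIB, DLG1 and the LGL proteins (LLGL1 and LLGL2) act together. The sides exclude each other, in part because aPKC phosphorylates LGL proteins and removes them from the apical membrane. LKB1, the kinase encoded by STK11, phosphorylates kinases of the AMPK family, among them the MARK kinases, which carry polarity signals.

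RNA was sequenced from 77-5 cells, a clone of the human embryonic kidney line T-REx-293. All 6 samples carry a mouse TrkB (Ntrk2) minigene made from a bacterial artificial chromosome, and an Rbfox1 gene that doxycycline switches on. The 3 No Dox samples were untreated, and the 3 Dox samples received doxycycline at a labelled 0.5 mg/ml for 48 h, a dose that legends of the study give in micrograms. Rbfox1 is an RNA-binding protein that regulates splicing, and the comparison of Dox with No Dox asks which human transcripts differed after its induction. Mouse is the organism of the labels, but the cells and the transcripts measured are human. The samples come from the same clone and no group received doxycycline without Rbfox1, so an effect of the drug and an effect of Rbfox1 cannot be told apart. No source states that replicates were separate cultures, so p-values measure the spread between these samples, which may be technical.

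Total expected counts, RSEM's estimate of sequenced fragments, lay between 59822964 and 65774104 per sample. The common biological coefficient of variation, the spread between replicates beyond counting, was 2.87%, so small differences could pass the test. RBFOX1 rose from 7.53 ± 0.79 to 188.3 ± 1.8 TPM (abundance per transcript length, scaled to a fixed total per sample; mean ± SD, n = 3), with an adjusted p of 7.6e-18 by edgeR. Its induced and its own genomic copy cannot be separated in these tables. In a comparison of counts across genes, pairs of replicates differed by a chi-square per gene of 2.30 to 6.24, the highest for Dox replicates 1 and 3, against 39.97 to 51.41 between groups. Of 7 markers of HEK293 cells, VIM (691.9 TPM in No Dox), KRT8 (227.1), KRT18 (154.5), LIN28B (42.1) and CDH2 (30.5) were abundant, whereas PAX2 (2.43) and NEFM (0.55) were low. Of these, 2 rose and 4 fell, where 24.9% of all genes tested rose and 26.5% fell, and their summed level was 1142 to 1153 TPM in No Dox and 1032 to 1066 TPM in Dox. Markers of polarised epithelium were mixed, with EPCAM at 95.3 TPM and KRT19 at 89.9, but CDH1 (E-cadherin) at 1.25, CLDN4 at 0.58 and ESRP1 at 0.18. Of these 5 markers 1 rose and 2 fell, with a summed level of 186.0 to 188.6 TPM in No Dox and 160.1 to 163.5 TPM in Dox. The 4 fibroblast markers summed to 8.49 to 8.87 TPM in No Dox and 11.37 to 11.91 in Dox, where LUM rose and COL1A2 was at or near 0. The 3 blood markers PTPRC, HBB and LYZ were at or near 0. The part of these marker differences in the results was not tested. RNA was measured in bulk, so fewer cells that use a gene and less RNA per cell cannot be told apart.

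LLGL1 (ENSG00000131899.11) stood apart from the other genes of the set. Its level was 37.76, 38.88 and 36.31 TPM in No Dox and 12.52, 12.03 and 10.98 TPM in Dox. Every Dox sample lay below every No Dox sample, with a wide gap between them. The mean went from 37.65 ± 1.29 to 11.84 ± 0.79 TPM, a log2 fold change of -1.64 ± 0.04 (SE), which is 3.12-fold lower. Expected counts summed over the 3 samples were 20477 in No Dox and 6735 in Dox. In the order of log2 fold change from the lowest, LLGL1 was number 36 of 18264 genes tested, and number 7 of the 9100 genes with a mean of at least 10 TPM.

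LLGL2 (ENSG00000073350.13), the paralog of LLGL1 and the other human LGL protein, was measured at 16.46, 17.23 and 16.11 TPM in No Dox and 16.04, 16.44 and 13.71 TPM in Dox. The groups overlapped. Its log2 fold change was -0.07 ± 0.05, with an adjusted p of 0.26 by edgeR. The ratio of LLGL1 to LLGL2 in TPM was 2.27 ± 0.02 in No Dox and 0.77 ± 0.04 in Dox. In TPM, LLGL1 was thus the more abundant paralog without doxycycline and the less abundant with it. In expected counts, which are not per length, LLGL1 stayed above LLGL2 in Dox (6735 and 4123 over the 3 samples). The short isoform LLGL2-202, of 1374 bases, made up 4.61 of the 15.40 TPM of LLGL2 in Dox. The summed level of both paralogs was 54.25 ± 1.85 TPM in No Dox and 27.24 ± 2.21 TPM in Dox. Reads that fit both paralogs would be divided by RSEM, which can leave fractions in the gene counts. Little of this was seen here. The gene counts of LLGL1 were whole numbers in all 6 samples. Those of LLGL2 were nearly whole, at 1455.99, 1388.99 and 1376.01 in No Dox and 1455, 1371 and 1296.99 in Dox.

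**Figure D1:**
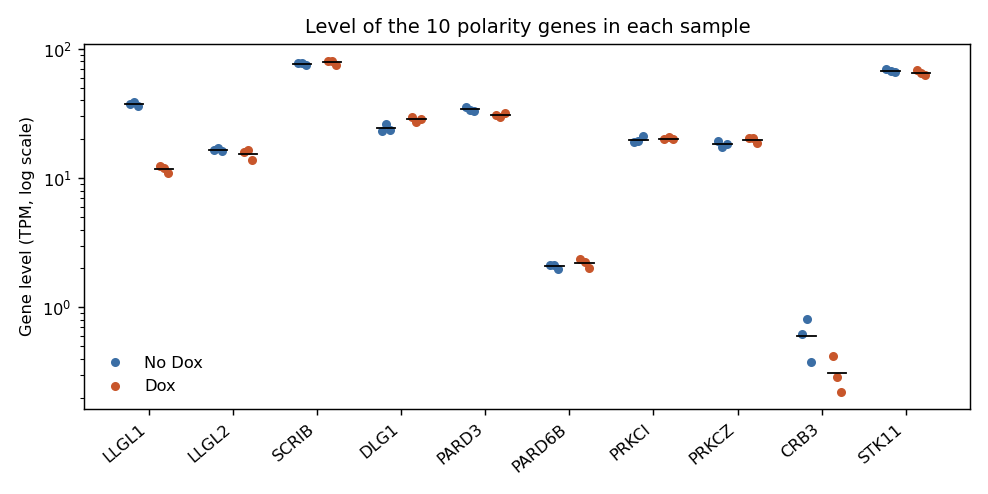
Level of each of the 10 genes (TPM, log axis) in 3 No Dox samples (blue) and 3 Dox samples (orange), with points for samples and bars for the mean. LLGL1 lies between 36.31 and 38.88 TPM in No Dox and between 10.98 and 12.52 TPM in Dox, whereas the groups of most other genes lie close together.

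Among the other 9 genes, 4 fell (SCRIB, PARD3, CRB3 and STK11) and 5 did not pass the test (LLGL2, DLG1, PARD6B, PRKCI and PRKCZ). Of all 18264 genes tested with edgeR, 51.4% were called in either direction, 24.9% as risen and 26.5% as fallen. The median log2 fold change of the 9 genes was -0.07, beside 0.005 over all genes. Apart from CRB3, no log2 fold change among them was larger in size than 0.19. Without TMM, scaling by library size alone moved the split to 2 risen (DLG1 and PRKCZ) and 2 fallen (PARD3 and CRB3), as the median over all genes moved to 0.05. Beside the 4 that fell, 1 further gene, DLG1, had an unadjusted p under 0.05 by edgeR, toward a higher level. Of the 4 falls, 1 (PARD3) remained without No Dox replicate 1 and without No Dox replicate 2, and 2 (SCRIB and PARD3) without Dox replicate 2 and without Dox replicate 3. In addition DLG1 was called as risen without No Dox replicate 2 or Dox replicate 1, and PRKCZ without Dox replicate 3. On the log2(TPM + 1) scale with limma, PARD3 fell and DLG1 rose, and the other 7 genes did not pass. TPM ranges of the groups did not overlap for 2 of the 9 genes, DLG1 and PARD3, where 50.3% of all tested genes did not overlap.

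SCRIB (ENSG00000180900.19) encodes a large scaffold with leucine-rich repeats and PDZ domains, and it was the most abundant gene of the set. It had 77.13, 77.62 and 74.76 TPM in No Dox, and 81.24, 80.14 and 75.16 TPM in Dox. In these units the groups overlapped. In TMM-scaled CPM, counts per library size that are not divided by transcript length, it had 151.3, 150.9 and 149.1 in No Dox and 146.3, 142.0 and 130.7 in Dox, with no overlap. On counts SCRIB fell by 0.11 on the log2 scale (SE 0.03, adjusted p = 0.017 by edgeR), whereas on the log2(TPM + 1) scale the difference was 0.04 in the other direction. The call was also lost by library size scaling, and without No Dox replicate 1 or without No Dox replicate 2. Without Dox replicate 3 SCRIB fell by 0.06 (adjusted p = 0.038 by edgeR).

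DLG1 (ENSG00000075711.20) encodes a scaffold of the membrane-associated guanylate kinase family. Its level was 23.15, 26.23 and 23.47 TPM in No Dox, and 29.64, 27.2 and 28.77 TPM in Dox. All Dox samples were above all No Dox samples. The log2 fold change on counts was 0.08 ± 0.03, with an adjusted p of 0.053 by edgeR, just outside the threshold of 0.05. It passed with library size scaling, on the log2(TPM + 1) scale (0.23), and without No Dox replicate 2 or without Dox replicate 1.

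PARD3 (ENSG00000148498.16) encodes PAR3, a scaffold with PDZ domains at the apical junctions. It was measured at 35.52, 33.81 and 32.99 TPM in No Dox and 30.77, 29.98 and 32.09 TPM in Dox. The groups did not overlap, but replicate 3 of No Dox and replicate 3 of Dox lay close together. PARD3 fell by 0.19 on the log2 scale (SE 0.03, adjusted p = 8.0e-05 by edgeR), a decrease of 12.2%. This call held in all alternatives except a required minimum log2 fold change of 0.26.

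PAR6 and aPKC, the partners of PAR3, did not pass the test. PARD6B (ENSG00000124171.9), an adaptor that binds aPKC and CDC42, had 2.13, 2.13 and 1.98 TPM in No Dox and 2.36, 2.25 and 2.03 TPM in Dox, with a log2 fold change of 0.07 ± 0.07 (adjusted p = 0.44 by edgeR). PRKCI (ENSG00000163558.13), which encodes aPKC iota, had 19.02, 19.24 and 21.05 TPM in No Dox and 20.12, 20.72 and 19.92 TPM in Dox. Its log2 fold change was -0.04 ± 0.03 (adjusted p = 0.36 by edgeR) and its sign turned with library size scaling (0.01) and on the log2(TPM + 1) scale (0.03). The samples of both genes overlapped between the groups. PRKCZ (ENSG00000067606.17), which encodes aPKC zeta, had 19.25, 17.43 and 18.22 TPM in No Dox and 20.34, 20.36 and 18.61 TPM in Dox. Its log2 fold change was 0.09 ± 0.05 (adjusted p = 0.15 by edgeR), and it passed without Dox replicate 3 (adjusted p = 0.0074 by edgeR) and with library size scaling. The RNAs of both kinases had near equal TPM, with a ratio of PRKCI to PRKCZ of 1.08 ± 0.09 in No Dox and 1.03 ± 0.04 in Dox. In expected counts, which are not per length, PRKCI was higher, with 11752 against 4363 in No Dox and 11782 against 4756 in Dox.

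CRB3 (ENSG00000130545.16) was close to the lower limit of what these libraries measure. It had 24, 22 and 12 expected counts in No Dox and 12, 8 and 9 in Dox, or 0.62, 0.81 and 0.38 TPM against 0.42, 0.29 and 0.22 TPM. The groups overlapped in TPM and touched at 12 counts. CRB3 fell by 1.03 on the log2 scale (SE 0.36, adjusted p = 0.026 by edgeR), with 58 counts in No Dox and 29 in Dox over all samples. The call was lost with DESeq2 (adjusted p = 0.095), on the log2(TPM + 1) scale, with a required minimum fold change, and without No Dox replicate 1, No Dox replicate 2, Dox replicate 2 or Dox replicate 3.

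STK11 (ENSG00000118046.15), which encodes LKB1, was the second most abundant gene. It had 69.7, 67.32 and 65.85 TPM in No Dox and 68.31, 65.38 and 62.88 TPM in Dox. The groups overlapped, also in CPM. STK11 fell by 0.09 on the log2 scale (SE 0.03, adjusted p = 0.046 by edgeR), a decrease of 5.81%. The call was lost in 7 of 13 alternatives, among them library size scaling and leaving out No Dox replicate 1, No Dox replicate 2, Dox replicate 2 or Dox replicate 3.

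**Figure D2:**
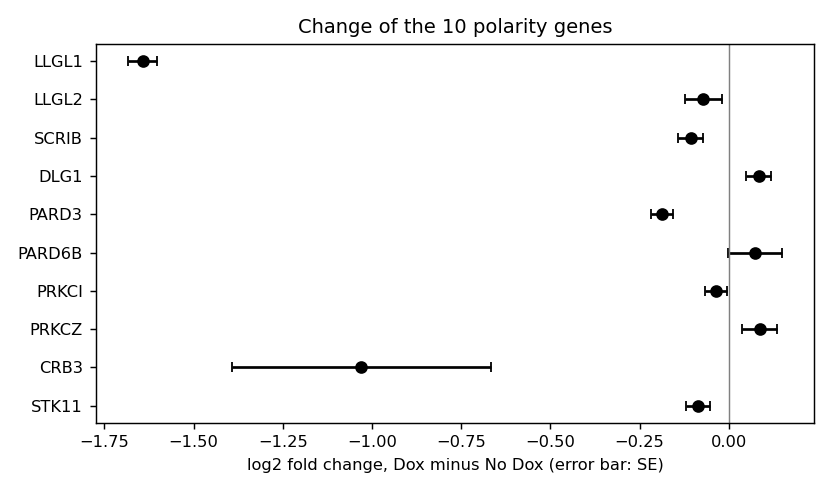
Log2 fold change of the 10 genes on counts (Dox minus No Dox, edgeR), with points for the estimate and bars for ± 1 SE. LLGL1 is at -1.64 and CRB3, with few counts, at -1.03, and the other 8 genes lie within 0.19 of 0.

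The order of the levels in TPM, which is per transcript length, was compared between the groups. In No Dox the order was SCRIB, STK11, LLGL1, PARD3, DLG1, PRKCI, PRKCZ, LLGL2, PARD6B and CRB3. In Dox LLGL1 moved from rank 3 to rank 8, below LLGL2 in TPM though not in counts. The other 9 genes kept their order among themselves. PRKCI and PRKCZ were the only neighbours whose samples overlapped, and they did so in both groups. SCRIB exceeded LLGL1 by a TPM ratio of 2.03 ± 0.03 in No Dox and 6.67 ± 0.18 in Dox. The ratio of SCRIB to DLG1 was 3.16 ± 0.19 in No Dox and 2.77 ± 0.17 in Dox.

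The genes whose pattern over the 6 samples was nearest to that of LLGL1 were found by the root mean square distance of log2 CPM, centred per gene, among 9099 genes with a mean of at least 10 TPM. They were PHGDH (distance 0.05), the first enzyme of serine synthesis, RBFOX2 (0.07), a splicing regulator of the Rbfox family, and SLC1A3 (0.10), a glutamate transporter. PHGDH had 336.4 ± 8.9 TPM in No Dox and 128.5 ± 0.8 in Dox, RBFOX2 48.34 ± 1.58 and 16.96 ± 0.88, and SLC1A3 27.33 ± 0.76 and 11.05 ± 0.78. Nearness here rests on the same difference between groups for which LLGL1 was picked.

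The isoform tables list 125 isoforms of the 10 genes, of which 57 passed the filter on low counts and 23 were at 0 in all 6 samples. Many reads fit several isoforms of a gene and are shared out among them by the RSEM model, so single isoforms are estimated, not counted. The isoform percentage is an isoform's part of the TPM of its gene.

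Only 2 isoforms of LLGL1 passed the filter, and they differed in their response. LLGL1-201, of 4212 bases, had 35.85, 37.01 and 34.5 TPM in No Dox and 10.74, 10.34 and 9.18 TPM in Dox. LLGL1-202, of 6004 bases, had 1.86, 1.73 and 1.81 TPM in No Dox and 1.78, 1.69 and 1.8 TPM in Dox. The shorter isoform carried nearly all of the difference in the gene, and the samples of the longer isoform overlapped between the groups. The log2 fold change was -1.84 ± 0.06 for LLGL1-201 and -0.05 ± 0.08 for LLGL1-202 by limma-voom. In expected counts LLGL1-201 went from 19067 to 5380, which was 99.6% of the difference in the gene, while LLGL1-202 had 1385 and 1355. Within the lower total, LLGL1-202 took 4.93, 4.44 and 4.99 percent of the gene in No Dox and 14.21, 14.03 and 16.37 percent in Dox. LLGL1-203 had 24.83 counts in No Dox, none of them in replicate 3, and 0 in Dox, and did not pass the filter.

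**Figure D3:**
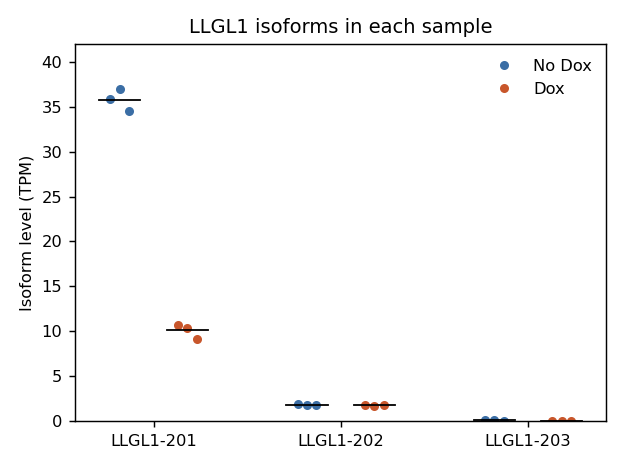
Level of the 3 isoforms of LLGL1 (TPM) in 3 No Dox samples (blue) and 3 Dox samples (orange), with points for samples and bars for the mean. LLGL1-201 lies between 34.5 and 37.01 TPM in No Dox and between 9.18 and 10.74 TPM in Dox, and LLGL1-202 lies between 1.69 and 1.86 TPM in all samples.

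Of the 122 isoforms of the other 9 genes, 55 were tested, and 3 rose, 6 fell and 46 did not pass. Among all 72438 isoforms tested with limma-voom, 12.6% were called, 6.19% as risen and 6.44% as fallen. The 9 calls belonged to PARD3 (5), SCRIB (2) and STK11 (2). At an unadjusted p under 0.05 there were 20 of the 55. The share of all isoforms at that threshold was not taken, so this count cannot be set beside the 12.6%. The number of calls dropped from 9 to 4 without No Dox replicate 2 and to 5 without Dox replicate 1, and it was 17 with DESeq2. Isoform usage, tested with diffSplice, asks whether an isoform differs in its change from the rest of its gene. Usage changed in 3 of the 7 genes with enough isoforms, which were PARD3, SCRIB and STK11, beside 27.5% of 12328 genes in all. PARD3 and SCRIB were called in all 10 alternatives of this test. The usage test takes isoforms of the same gene to vary alike, which need not hold, so its error rate may exceed 5%.

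PARD3 had the most called isoforms, and its usage changed with an adjusted p of 1.2e-07 (diffSplice, Simes). PARD3-201, of 3518 bases, made up 26.17, 26.08 and 30.59 percent of the gene in No Dox, where it was the most abundant isoform, and 5.28, 10.04 and 5.71 percent in Dox. It fell by 2.20 on the log2 scale (SE 0.19, adjusted p = 0.00097 by limma-voom). PARD3-209, of 5800 bases, fell by 0.90 (SE 0.10, adjusted p = 0.0025 by limma-voom), from 14.13 ± 1.16 to 8.39 ± 0.74 percent. PARD3-212, of 2475 bases, fell by 1.01 (SE 0.21, adjusted p = 0.023 by limma-voom), from 17.10 ± 1.04 to 9.61 ± 2.73 percent. Each of these 3 isoforms had lower percentages in every Dox sample than in any No Dox sample. The fall of PARD3-212 was lost in 5 of 12 alternatives, among them those without No Dox replicate 1, No Dox replicate 2, Dox replicate 1 or Dox replicate 2.

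Other isoforms of PARD3 took a larger share in Dox. PARD3-210, of 5644 bases, had 0.73, 0.84 and 0.43 percent of the gene in No Dox and 7.24, 9.05 and 6.58 percent in Dox, and rose with a log2 fold change of 3.38 ± 0.28 (adjusted p = 0.00072 by limma-voom). PARD3-208, of 5980 bases, rose from 3.33 ± 1.60 to 7.85 ± 1.10 percent, with a log2 fold change of 1.197 ± 0.286 (adjusted p = 0.041 by limma-voom), and this call was lost in 9 of 12 alternatives, among them the omission of any sample except No Dox replicate 3. PARD3-206, of 3364 bases, had 12.83, 15.1 and 11.66 percent in No Dox and 18.19, 25.95 and 21.34 percent in Dox, where it was the most abundant isoform. Its log2 fold change of 0.56 ± 0.16 did not pass (adjusted p = 0.071 by limma-voom), but it did without Dox replicate 1 and with DESeq2.

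PARD3-205, of 3395 bases, was listed at 0 in all No Dox samples and took 13.72, 7.06 and 12.65 percent of the gene in Dox. Its 1491 expected counts in Dox are given without a fold, because a listed 0 depends on how RSEM shares reads among isoforms. PARD3-205 did not pass with limma-voom (adjusted p = 0.15). It passed in 6 of 12 alternatives, among them edgeR (adjusted p = 0.0023), DESeq2 and the omission of Dox replicate 2. PARD3-204 and PARD3-215 have identical values in all samples and cannot be told apart here.

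**Figure D4:**
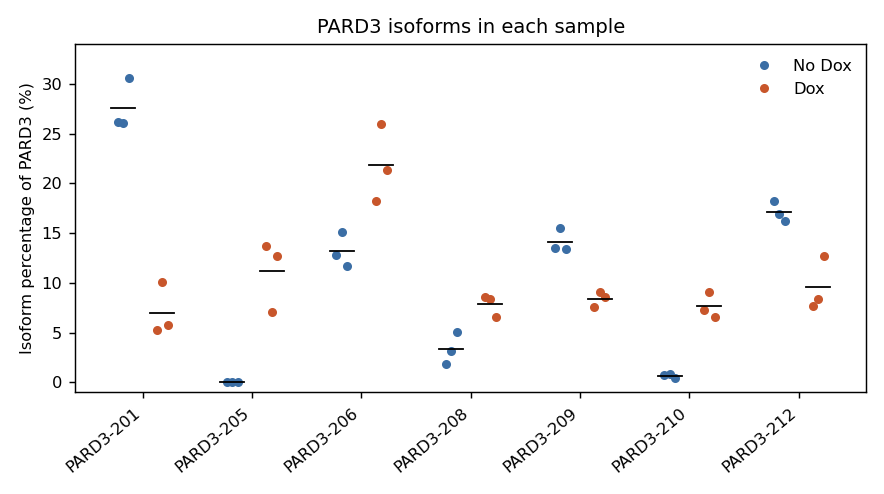
Isoform percentage of the 7 named isoforms of PARD3 in 3 No Dox samples (blue) and 3 Dox samples (orange), with points for samples and bars for the mean. The groups do not overlap for any of the 7, which is in part fixed by how they were named. They had a mean of at least 10 percent in a group or had passed the test. PARD3-201 goes from a mean of 27.6 to 7.01 percent and PARD3-206 from 13.2 to 21.8 percent. PARD3-204, which is not drawn, overlaps between the groups (9.18 ± 0.64 and 9.35 ± 1.90 percent).

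In SCRIB, usage changed with an adjusted p of 5.9e-06 (diffSplice, Simes). SCRIB-201, of 5143 bases, was the most abundant isoform in both groups, with 45.92, 45.94 and 47.14 percent in No Dox and 40.53, 40.48 and 38.85 percent in Dox. It fell by 0.18 on the log2 scale (SE 0.04, adjusted p = 0.043 by limma-voom), a call lost in 8 of 12 alternatives, among them the omission of any sample except Dox replicate 3. SCRIB-202, of 5607 bases, rose from 4.65 ± 0.24 to 6.78 ± 0.57 percent with a log2 fold change of 0.58 ± 0.08 (adjusted p = 0.0070 by limma-voom), and it passed in all 12 alternatives. SCRIB-207, of only 421 bases, had 14.39, 17.43 and 13.24 percent in No Dox and 21.41, 20.88 and 20.79 percent in Dox, and did not pass (adjusted p = 0.083 by limma-voom). SCRIB-206, of 538 bases, was at 27.50 ± 1.96 and 26.43 ± 1.82 percent (adjusted p = 0.86 by limma-voom). Because TPM is per length, SCRIB-206 and SCRIB-207 weigh more in the TPM of SCRIB than in its counts, where they had 999.1 and 368.6 of 28344 in No Dox.

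In STK11, usage changed with an adjusted p of 0.0028 (diffSplice, Simes). STK11-201, of 2611 bases, had 40.65, 42.53 and 42.29 percent in No Dox and 48.32, 46.34 and 46.1 percent in Dox, with no overlap, and its own level did not pass (log2 fold change 0.11 ± 0.05, adjusted p = 0.24 by limma-voom). STK11-202 fell by 0.36 on the log2 scale (adjusted p = 0.049 by limma-voom), from 8.42 ± 0.39 to 6.86 ± 0.49 percent, a call lost in 11 of 12 alternatives and without any single sample. STK11-207 fell by 0.58 (adjusted p = 0.031 by limma-voom), from 4.77 ± 0.37 to 3.34 ± 0.41 percent, a call lost in 6 of 12 alternatives, among them the omission of No Dox replicate 1, No Dox replicate 2, Dox replicate 1 or Dox replicate 3. STK11-210, the second most abundant isoform, was at 29.54 ± 1.65 and 28.13 ± 0.72 percent (adjusted p = 0.31 by limma-voom). The usage call of STK11 was lost without Dox replicate 1, with diffSpliceDGE and with isoforms of at least 10 percent only.

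Isoform usage did not pass for DLG1 (adjusted p = 0.068 by diffSplice), LLGL2 (0.16), PRKCI (0.23) and PRKCZ (0.70). DLG1 was called with the F test of diffSplice, with diffSpliceDGE, and without No Dox replicate 1 or No Dox replicate 3. LLGL2 was called without No Dox replicate 1, and PRKCI without Dox replicate 1. The leading isoform of DLG1, DLG1-201 of 5034 bases, was at 31.00 ± 5.79 percent in No Dox and 28.48 ± 2.24 in Dox, and DLG1-202 at 17.44 ± 4.62 and 16.52 ± 1.63. DLG1-209, of 582 bases, had 8.28, 12.04 and 9.72 percent in No Dox and 13.96, 13.49 and 12.84 in Dox, and did not pass (adjusted p = 0.12 by limma-voom). DLG1-212 was at 9.91 ± 2.66 and 10.58 ± 2.30 percent. Some DLG1 isoforms with a mean under 10 percent in both groups are given as well, chosen after their values were seen. DLG1-210 went from 9.90 ± 1.48 to 4.87 ± 0.92 percent, with no overlap. Its own level did not pass (adjusted p = 0.051 by limma-voom). Against the rest of its gene it had an adjusted p of 0.021 (diffSplice, test of single isoforms), although the gene as a whole did not pass. DLG1-205 had 96.37, 56.43 and 135.64 expected counts in No Dox (3.64 ± 1.64 percent of the gene) and 0 in all Dox samples. DLG1-216 had 97.88, 0 and 0 counts in No Dox and 331.23, 235.32 and 340.4 in Dox, or 1.24 ± 2.14 and 9.52 ± 1.08 percent. Neither DLG1-205 nor DLG1-216 passed (adjusted p = 0.094 and 0.081 by limma-voom).

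The named isoforms of LLGL2, PRKCI, PARD6B and PRKCZ did not pass the test. LLGL2 was spread over LLGL2-202 (28.67 ± 6.17 percent in No Dox, 29.85 ± 4.24 in Dox), LLGL2-203 (22.47 ± 2.53 and 24.22 ± 4.18) and LLGL2-207 (15.04 ± 0.91 and 13.51 ± 1.24). In contrast with LLGL1, no isoform held most of the gene. PRKCI was nearly all PRKCI-201, with 94.50 ± 2.13 percent in No Dox and 90.59 ± 3.72 in Dox, and PARD6B was PARD6B-201 with 98.38 ± 2.81 and 100 percent. PRKCZ was divided between PRKCZ-201 (53.72 ± 3.58 and 53.61 ± 2.82 percent) and PRKCZ-215 (34.68 ± 1.92 and 35.67 ± 1.64). Adjusted p-values of these 7 isoforms lay between 0.28 and 0.94 by limma-voom. The isoforms of CRB3 were below the filter, and CRB3-202 ranged from 0 to 78.23 percent over single samples, so its composition could not be read at this depth.

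A further 59 genes of the same pathways, in 6 lists by function, were taken from the same edgeR fit. Of these, 57 were tested, and 20 rose, 18 fell and 19 did not pass, with a median log2 fold change of -0.01. CRB1 and CRB2 were below the filter, at no more than 0.10 TPM on average. With library size scaling the split was 22 risen and 12 fallen, on the log2(TPM + 1) scale with limma it was 20 and 9, and with a required minimum log2 fold change of 0.26 it was 6 and 6. The share called, here and in each list below, is a description, to be set beside 51.4% of all genes tested (24.9% risen, 26.5% fallen).

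Among 7 genes of the Par complex and its partners, 2 rose, 2 fell and 3 did not pass. PARD3B, a paralog of PARD3, rose on counts (log2 fold change 0.37 ± 0.05, adjusted p = 3.4e-05 by edgeR), a fold of 1.29. Its TPM rose less, from 2.56 ± 0.15 to 2.89 ± 0.27, a ratio of 1.13. The groups overlapped in TPM, and PARD3B was not called on the log2(TPM + 1) scale. WWC1, which encodes KIBRA and binds aPKC, fell by 0.52 on the log2 scale of counts (adjusted p = 5.7e-09 by edgeR), a fold of 0.70. The TPM of WWC1 fell less, from 20.03 ± 0.67 to 15.78 ± 0.37, a ratio of 0.79. PARD6A and PARD6G, the paralogs of PARD6B, did not pass, and neither did CDC42.

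In the Crumbs complex, 3 of 6 tested genes rose, 1 fell and 2 did not pass. The scaffold PALS1, listed as MPP5, rose from 12.40 to 18.05 TPM with a log2 fold change of 0.40. LIN7C and LIN7A, paralogous adaptors that bind PALS1, went in opposite directions. LIN7C rose from 9.82 ± 0.37 to 14.24 ± 0.38 TPM (log2 fold change 0.50 ± 0.04, adjusted p = 1.2e-08 by edgeR). LIN7A fell by 0.85 on the log2 scale of counts (adjusted p = 2.4e-09 by edgeR), a fold of 0.56. The TPM of LIN7A fell less, from 6.39 ± 0.57 to 4.53 ± 0.21, a ratio of 0.71. The TPM of the groups did not overlap for either gene.

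Of 6 further genes of the Scribble group, 1 rose, 3 fell and 2 did not pass. DLG4, a paralog of DLG1 best known from synapses, rose with a log2 fold change of 0.26 ± 0.07 (adjusted p = 0.0049 by edgeR), and DLG3 fell by 0.26 (adjusted p = 4.8e-06 by edgeR). Both calls were lost with a required minimum log2 fold change. DLG5 and LRRC1 also fell, by 0.18 and 0.22, and ERBIN, a relative of SCRIB, did not pass.

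Among 17 partners and substrates of LKB1, 7 rose, 3 fell and 7 did not pass. CAB39L, a subunit of the LKB1 complex, rose from 1.73 ± 0.34 to 2.42 ± 0.08 TPM (log2 fold change 0.54 ± 0.09, adjusted p = 8.1e-05 by edgeR). PRKAA1 and PRKAA2, the catalytic subunits of AMPK, rose with log2 fold changes of 0.17 and 0.45. SIK1, a kinase downstream of LKB1, fell by 0.37 (adjusted p = 0.00085 by edgeR), but its reads may be shared with a near-identical copy in the annotation, and its TPM overlapped between groups. Of the MARK kinases, MARK3 rose by 0.09, MARK4 fell by 0.25, and MARK1 and MARK2 did not pass.

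Of 11 junction genes, 3 rose, 4 fell and 4 did not pass. OCLN (occludin), a tight junction protein, rose from 25.19 ± 1.85 to 29.70 ± 2.57 TPM (log2 fold change 0.29 ± 0.03, adjusted p = 6.0e-07 by edgeR). The gene counts of OCLN were not whole (3856.48 in No Dox replicate 2, 5086.59 in Dox replicate 1), so some reads may be shared with another gene. AFDN (afadin), which links nectins to actin, fell by 0.44 on the log2 scale of counts (adjusted p = 3.3e-10 by edgeR), a fold of 0.74. Its TPM fell less, from 80.90 ± 1.17 to 69.52 ± 0.04, a ratio of 0.86. NECTIN2 and NECTIN3 fell as well, by 0.40 and 0.18. CDH2 (N-cadherin), at 30.5 TPM in No Dox, rose with a log2 fold change of 0.26, and CDH1 did not pass.

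In planar polarity, the axis within the plane of an epithelium, 4 of 10 genes rose, 5 fell and 1 did not pass. Over all genes tested, 24.9% rose and 26.5% fell, and the list was not tested as a set. FZD6, a Frizzled receptor, rose from 11.34 ± 0.61 to 16.33 ± 0.41 TPM (log2 fold change 0.46 ± 0.04, adjusted p = 3.6e-08 by edgeR). CELSR3, a large cadherin of this pathway, fell by 0.45 (adjusted p = 1.7e-07 by edgeR), and CELSR1 and CELSR2 fell by 0.31 and 0.10. VANGL1 and VANGL2 rose with log2 fold changes of 0.10 and 0.17. FZD3, counted among the 5 that fell (by 0.10 on counts), went the other way in TPM, from 10.31 ± 1.08 to 14.46 ± 1.19, with every Dox sample above every No Dox sample. All tested log2 fold changes in the 6 lists were smaller in size than that of LLGL1, which was chosen for its difference in this comparison. LIN7A was the nearest to LLGL1.

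**Figure D5:**
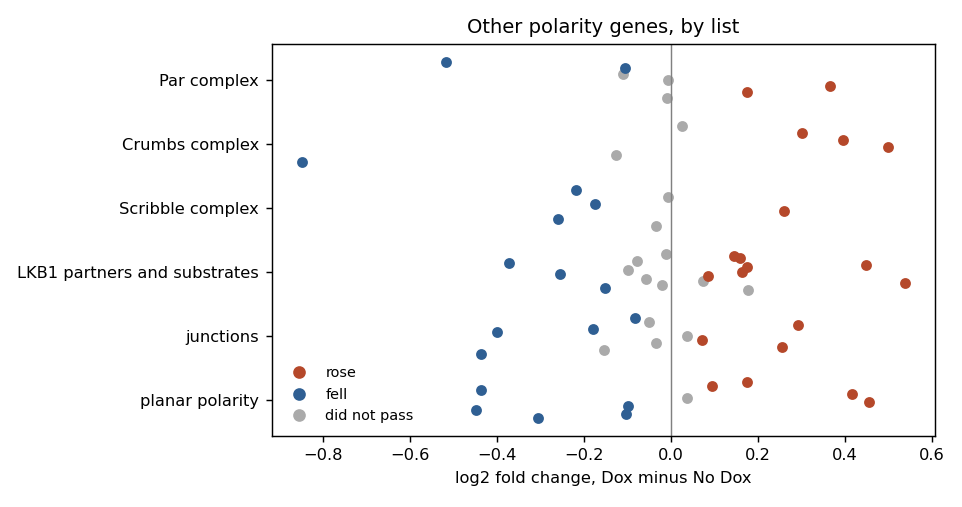
Log2 fold change on counts (Dox minus No Dox, edgeR) of 57 other polarity genes in 6 lists, with a point per gene, red where it rose, blue where it fell and grey where it did not pass. The points lie between -0.85 for LIN7A and 0.54 for CAB39L, and each list holds genes on both sides of 0.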

How the data were processed

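RNA-seq of 3 No Dox and 3 Dox samples of 77-5 cells was used, grouped by the treatment that the labels give. From stranded mRNA libraries, the authors removed adapters (cutadapt), aligned reads to human GRCh38 (STAR) and quantified isoforms (RSEM), per the labels and the study's methods. For this RNA-seq, the versions of cutadapt, STAR and RSEM, and the use of strand by RSEM, are not given in the sources. The deposited expected counts, not normalized, estimate the fragments of each of 208621 isoforms. The deposited TPM values were scaled by RSEM for length and sample total. The deposited isoform percent is the share of a gene's abundance. The deposited transcript lengths, in bases, were copied as given.

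Gene values are sums of isoform expected counts, rounded before fitting. Genes were tested with edgeR 4.0.16 (glmQLFit, glmQLFTest, TMM, filterByExpr), isoforms with limma-voom (limma 3.58.1) and usage with limma diffSplice (Simes), in R 4.3.3. Tests were two-sided, with Benjamini-Hochberg adjustment over all features tested and a threshold of 0.05. The standard error of a gene's log2 fold change is its size divided by the square root of F. DESeq2 1.42.0, other scalings, no filter, log2(TPM + 1) with limma, a minimum log2 fold change of 0.26, a replicate block and leaving out each sample were alternatives, as were edgeR for isoforms and, for usage, diffSpliceDGE, the F test and isoforms of at least 10 percent. The tests were also run on simulated counts with known answers. Each count was drawn independently there, so this does not cover how RSEM shares reads among isoforms.

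The text names the 10 genes, their isoforms with a mean of at least 10 percent in a group or past the test, the called gene of largest rise and of largest fall in each further list, the 3 genes nearest to LLGL1, RBFOX1 and cell markers; further genes of the lists were named after their values were seen. The members and lists were chosen with earlier results of these data known. No sequence or coordinate is printed, because a human reference was not used here. An expected count of 0 for an isoform is an estimate and does not show that the isoform was absent.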

Additional observations from a re-analysis of the deposited data

How the results depend on the processing

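Among the 9 genes tested beside LLGL1, the 4 calls, all falls, became 2 on the log2(TPM + 1) scale with limma, of which 1 was among the 4 (PARD3) and the other was a rise of DLG1, and 0 with a required minimum log2 fold change of 0.26 in edgeR, where 1 gene had an unadjusted p under 0.05. They ranged from 1 to 5 when each sample was left out. Calls among the other polarity genes went from 38 to 12 with the minimum fold change and from 32 to 39 with samples left out. Isoform calls went from 9 to 17 with DESeq2 and from 4 to 7 with samples left out, and usage calls from 3 to 5 with samples left out. Of 273 alternative values of single genes 237 kept their direction and side of the threshold, 26 lost the call, 7 gained it and 3 turned sign (SCRIB at 0.042 and PRKCI at 0.034 on the log2(TPM + 1) scale, PRKCI at 0.012 with library size only). Of 312 values of single isoforms these numbers were 252, 39, 10 and 11. The sign of LLGL2-203 turned with library size only (0.0060). With samples left out, log2 fold changes ranged from -0.095 to 0.35 for DLG1-202, from -0.24 to 0.058 for LLGL2-202, from -0.12 to 0.040 for LLGL2-203 and from -0.084 to 0.021 for SCRIB-206. None of these 4 isoforms was called. The log2 fold change of LLGL1 lay between -1.68 and -1.59 in all 13 alternatives. The cause of these differences was not tested.

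The replicate numbers of the labels do not say what they share. Deviations of same-numbered samples from their group means correlated at 0.041, 0.028 and 0.057, under 0.1, and each sample correlated best with its own number, which is a hint only. With the replicate block, 5 of the 9 genes were called (the 4 and DLG1), 39 of the other polarity genes, 9 isoforms of which 6 were shared with the fit without the block (PARD3-208, PARD3-212 and STK11-202 were lost), and usage in 4 genes (DLG1 added). Depth limits CRB3, with at most 24 counts in a sample, and isoforms of few counts, for which a missed threshold does not show that they did not differ.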
